A study of Mus musculus with 47 samples.

Results

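Hoxa2 and Hoxb2, the 2 Hox genes of paralogue group 2, were followed across 16 groups of mouse cranial neural crest cells, 47 libraries in all. They were picked by gene symbol from the 38215 genes of the deposited table. Crest cells had been cut from embryos, sorted by fluorescence and sequenced as total RNA without strand information, per the labels' protocols. The 3 libraries of embryonic day (E) 8.5 were wild-type progenitors. At E10.5 there were 3 libraries of HoxA2OE (Hoxa2 overexpression) in the mandibular part of the first arch (Md). There were 3 each of Ezh2cKO (conditional knockout of Ezh2) in the second arch (PA2), the frontonasal process (FNP), the maxillary part of the first arch (Mx) and Md. Wild-type cells of E10.5 gave 3 libraries each of PA2, FNP and Md and 2 of Mx. At E11.5 there were 3 libraries each of Hoxa2TempMut (a temporal knockout of Hoxa2) and its Control, both in PA2, and of wild-type PA2, FNP, Mx and Md. The Cre driver, the promoter of the overexpression allele, the time of Hoxa2 deletion, the alleles of Control and any pooling of embryos were not stated in the labels. Replicates carry numbers but no word on separate embryos, so a p-value here reflects sample-to-sample spread that may be technical.

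Hox genes encode homeodomain transcription factors that give cells their position along the head-to-tail axis, and genes of one paralogue group descend from one ancestral gene and sit at matching places in different clusters. In the mouse head, Hoxa2 is active in crest of the second arch and is needed for its identity: without it the second arch forms first-arch skeletal pieces. Crest of the frontonasal process and first arch normally lacks Hox RNA. Hoxb2 is active in the hindbrain and second arch and is known in mice for its part in forming facial motor neurons. Polycomb repressive complex 2, whose enzyme is Ezh2, methylates lysine 27 of histone H3 and helps to keep Hox genes silent where they are not used.

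Hoxa2 (ENSMUSG00000014704) lies on the minus strand of chromosome 6 at chr6:52162351-52165413 and Hoxb2 (ENSMUSG00000075588) on the plus strand of chromosome 11 at chr11:96351632-96355689, both on GRCm38. Both encode closely related proteins, so their GENCODE vM21 transcripts on GRCm38 were compared. The longest run that the whole transcripts shared was 13 bases, and 0 of 1726 windows of 50 bases (the read length) in Hoxa2 occurred in Hoxb2. Reads of one member could therefore be told from reads of the other. Overlaps with other genes were less clean. Gm20653, on the same strand, covered 2055 of the 3063 bases of the Hoxa2 span. The antisense gene Hoxb3os covered 3060 of the 4058 bases of the Hoxb2 span and shared 953 of its 3488 exonic bases in GENCODE vM21. Without strand, reads of Hoxb2 and Hoxb3os cannot be told apart in that stretch, and no source says how reads shared by Hoxa2 and Gm20653 were counted. In GENCODE vM21, 220 of the Hoxa2 windows also occur in Gm28308.

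The promoter of Hoxa2 is shown because the gene's own level changed with place and genotype. RefSeq gives it for GRCm38.p6 at chr6:52164782-52165081 (minus strand), from 250 bases before to 50 bases after the start site. That start site differs from the 5′ end of the gene span given above, at base 52165413. The whole window, matches included, lies inside that span rather than before it. Capitals mark the 1 match to the Hox-Pbx letters TGATTGAT, read on the opposite strand.
Hoxa2 promoter: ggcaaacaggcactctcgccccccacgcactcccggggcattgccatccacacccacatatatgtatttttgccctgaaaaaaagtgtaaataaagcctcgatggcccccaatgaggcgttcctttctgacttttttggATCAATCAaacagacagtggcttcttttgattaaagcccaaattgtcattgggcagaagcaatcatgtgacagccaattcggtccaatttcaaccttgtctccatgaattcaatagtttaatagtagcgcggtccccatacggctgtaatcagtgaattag
The match begins 111 bases before the start site. Both strands were searched, and the letters TGATTGAT occur in 245 of 32851 mouse promoters of this length (0.746%). The Meis letters TGACAG, also searched on both strands, matched 1 time, 44 bases before the start site, and occur in 19.2% of promoters; the pair of matches do not overlap. Matches are a description of letters, not of binding. Hoxb2 had no entry in the promoter table.

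The 47 libraries held between 18.8 and 49.8 M counts (M for 1e6), with a median of 30.6 M. Levels are counts per 1e6 of the TMM-scaled library total (CPM). The floor for a group with no count was set at 3 counts over all its libraries, which is 0.0222 to 0.0453 CPM. Floors and intervals cover counting error only. All 6 crest mesenchyme markers (Twist1, Prrx1, Prrx2, Msx1, Pdgfra and Tfap2a) were detected in every group. Their summed level was 197 to 270 CPM at E8.5 and 1062 to 2816 CPM elsewhere, while 4 neural progenitor markers summed to 271 to 357 CPM at E8.5 and to at most 40.9 CPM elsewhere. Ezh2 itself lay at 113 to 157 CPM in Ezh2cKO libraries, against 350 to 404 CPM in wild-type libraries of E10.5. Comparisons were tested on 20560 genes with edgeR's quasi-likelihood test, and every adjusted p below is from that test with Benjamini-Hochberg adjustment over those genes, with a call at 0.05. Fold changes are log2 values, each given as the first-named group minus the second. The value after ± on a log2 fold change is an approximate standard error. It is the absolute fold change divided by the square root of the test's F statistic. Where a group has 0 counts, the fold change and this error depend on the prior count.

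In wild-type crest both genes marked the second arch. Hoxa2 had 127, 125 and 124 CPM in the 3 PA2 libraries of E10.5. In the other E10.5 libraries it had 0 counts in all 3 of FNP, 0.106 and 0 CPM in Mx, and 0.297, 0.248 and 0.265 CPM in Md. The lowest PA2 library was thus far above every other wild-type library of that stage. Hoxb2 had 5.07, 6.92 and 6.44 CPM in PA2 libraries of E10.5. It had 0 counts in all 3 of FNP, 1 count over both Mx libraries and 2 counts over the 3 of Md. Hoxb2 too was thus far higher in every PA2 library than elsewhere, and a count of 0 in FNP allows up to 0.0352 CPM.

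Pooled over libraries, Hoxa2 was 1261 times as high in PA2 as in FNP, Mx and Md together (95% counting interval 832 to 2013, from 8309 against 22 counts). Hoxb2 was 454 times as high (interval 154 to 2211, from 408 against 3 counts). Both were called higher in PA2 than in the mean of the others (adjusted p = 1.03e-27 for Hoxa2 and 2.64e-21 for Hoxb2), where 5.59% of all genes tested were called higher. Per kb of exon, the fair scale between genes, Hoxa2 stood at 51.7 ± 0.515 CPM per kb and Hoxb2 at 1.86 ± 0.291 CPM per kb in PA2 of E10.5 (SD, n = 3).

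At E11.5 the pattern was the same in kind. Hoxa2 had 194, 199 and 183 CPM in PA2, against 0.0799, 0.129 and 0 CPM in FNP, 0.254, 0 and 0.245 CPM in Mx, and 0.962, 1.29 and 2.49 CPM in Md. PA2 was again far above all other libraries, and Md lay above FNP and Mx without overlap. Hoxb2 had 7.48, 7.51 and 5.85 CPM in PA2 and 0.113, 0.12 and 0.0541 CPM in Md, with 1 count over the 3 Mx libraries and 0 over the 3 of FNP. Pooled, Hoxa2 was 321 times as high in PA2 as in the others (interval 278 to 372) and Hoxb2 204 times (interval 113 to 410). Both passed the test (adjusted p = 1.58e-29 for Hoxa2 and 1.8e-23 for Hoxb2), where 9.41% of genes were called higher.

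**Figure D1:**
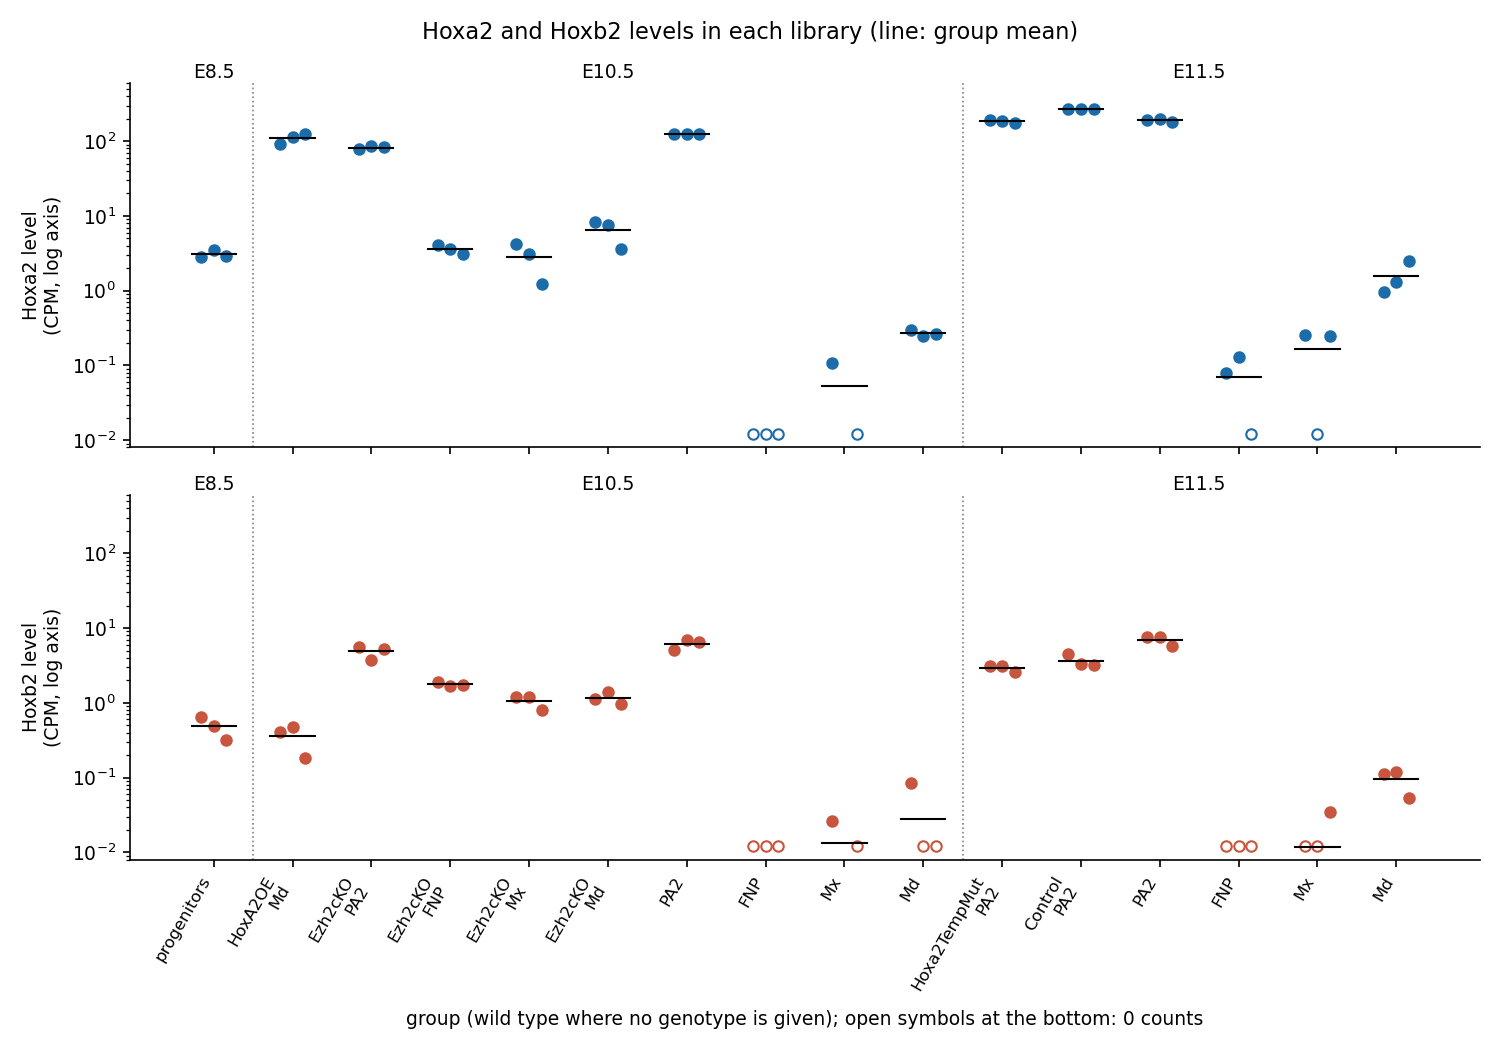
Levels of Hoxa2 (top) and Hoxb2 (bottom) in CPM on a log axis, with 1 point per library, a line at each group's mean, and open points at the bottom for 0 counts. Hoxa2 lies between 77.5 and 269 CPM in all PA2 groups and HoxA2OE Md, and at 8.21 CPM or below in all other libraries; Hoxb2 follows PA2 but not HoxA2OE Md.

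The closest neighbour of PA2, the mandibular first arch, gave a direct test. Against Md, Hoxa2 was higher in PA2 by a log2 fold change of 8.84 ± 0.37 at E10.5 (adjusted p = 1.77e-20) and 6.91 ± 0.29 at E11.5 (adjusted p = 9.14e-21), with 4.67% of genes called at E10.5 and 7.88% at E11.5. Hoxb2 was higher by 7.50 ± 0.47 and 6.14 ± 0.35 on the log2 scale (adjusted p = 5.16e-15 and 4.13e-16). Low Md counts limit these folds: Hoxb2 had 2 counts over Md at E10.5, a pooled ratio of 205 with an interval of 56.4 to 1699. The change of the PA2 to Md difference between stages was -1.92 ± 0.58 for Hoxa2 (adjusted p = 0.0924) and -1.36 ± 0.94 for Hoxb2 (adjusted p = 0.92), where 1.85% of genes were called. Neither passed, although Hoxa2 passed with no filter on low counts (adjusted p = 0.00242), with DESeq2 (0.0199) and in a fit of only these groups (0.00723).

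Below PA2, Md held the next highest Hoxa2 level. Hoxa2 was called lower in FNP than in Md at E10.5 (0 against 18 counts, at least 7.68-fold lower, adjusted p = 0.0137) and at E11.5 (log2 fold change -4.48 ± 0.58, adjusted p = 1.12e-07). It was also lower in Mx than in Md at E11.5 (-3.25 ± 0.52, adjusted p = 9.79e-06) but not called so at E10.5 (4 against 18 counts, adjusted p = 0.432). Hoxb2 was called lower in FNP than in Md at E11.5 (0 against 10 counts, at least 3.74-fold lower, adjusted p = 0.00384), with a libraries' range of 2 to 4 counts in Md. Further differences of Hoxb2 among FNP, Mx and Md rested on at most 10 counts and were not called: FNP against Md at E10.5 (adjusted p = 0.193), and Mx against Md at E10.5 (adjusted p = 1) and at E11.5 (adjusted p = 0.0717). FNP and Mx did not differ by a call in either gene at E10.5 (adjusted p = 0.323 for Hoxa2 and 0.432 for Hoxb2) or at E11.5 (0.417 and 0.415). Among all genes, 21.6% were called between FNP and Md, 6.61% between Mx and Md and 16.5% between FNP and Mx at E10.5, and 15.7%, 9.18% and 16.7% in those 3 comparisons at E11.5. In such bulk samples, fewer cells with the RNA and less RNA per cell cannot be told apart.

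Progenitors at E8.5 held an intermediate level. Hoxa2 had 2.84, 3.49 and 2.89 CPM there, and Hoxb2 had 0.654, 0.496 and 0.314 CPM. These libraries also carried more RNA of 4 further marker lists than any other group, besides the neural progenitor RNA given above (4 of 4 markers detected in each list). Endothelium markers summed to 119 to 136 CPM at E8.5, against at most 20.05 CPM elsewhere. Epithelium markers summed to 86.6 to 102.8 CPM, against at most 11.3 CPM, erythroid markers to 605 to 975 CPM, against at most 406 CPM, and glia markers to 111 to 121 CPM, against at most 76.1 CPM. Their part in the Hox levels was not tested. Against E8.5, PA2 of E10.5 was higher by 5.35 ± 0.26 for Hoxa2 (adjusted p = 4.82e-20) and by 3.66 ± 0.27 for Hoxb2 (adjusted p = 3.64e-14), both on the log2 scale. Md of E10.5 was lower, by log2 fold changes of -3.49 ± 0.46 for Hoxa2 (adjusted p = 2.96e-08) and -3.84 ± 0.65 for Hoxb2 (adjusted p = 4.43e-06). Mx was lower for Hoxa2 (4 against 417 counts, adjusted p = 1.44e-09) and Hoxb2 (1 against 65 counts, adjusted p = 1.72e-06). FNP fell to 0 counts, at least 87.6-fold below E8.5 for Hoxa2 (adjusted p = 1.27e-11) and at least 13.7-fold for Hoxb2 (adjusted p = 3.68e-08). Most genes differed between these stages, with 62.4% called for PA2, 60.6% for Md, 56.9% for Mx and 61.6% for FNP, so a call alone says little there. Replicate 1 of E8.5 stood apart, with a chi-square per degree of freedom of 118 and 128 against the others, which differed from each other by 6.67. Without it all 8 calls held, and PA2 was higher than E8.5 by 5.295 for Hoxa2 and 3.91 for Hoxb2 on the log2 scale. Wild-type FNP was uneven by the same measure, though less so. Replicate 1 of E10.5 FNP stood at 42.3 and 44.4 against the others, which differed by 6.19. Replicate 3 of E11.5 FNP stood at 71.3 and 65.3 against the others, which differed by 12.1.

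Between E10.5 and E11.5 Hoxa2 rose in PA2 and in Md. In PA2 the E11.5 libraries, at 183 to 199 CPM, lay above the E10.5 libraries, at 124 to 127 CPM, a log2 fold change of 0.62 ± 0.21 (adjusted p = 0.0178), which DESeq2 did not call (adjusted p = 0.0677). In Md the E11.5 libraries held 34, 43 and 92 counts, against 7, 6 and 5 counts at E10.5, a log2 fold change of 2.54 ± 0.52 (adjusted p = 1.36e-04). Hoxb2 did not pass in PA2 (0.18 ± 0.22, adjusted p = 0.56) or Md (10 against 2 counts, adjusted p = 0.187). In FNP and Mx neither member was called (for Hoxa2, 8 against 0 counts with adjusted p = 0.145 in FNP, and 16 against 4 counts with adjusted p = 0.348 in Mx; Hoxb2 had at most 1 count in each). The share of all genes called between the stages was 39.4% in PA2, 38.3% in Md, 42.6% in FNP and 38.3% in Mx. Among the 10 Hox genes of groups 1, 3 and 4, 7 rose in PA2 and 0 fell, with a median log2 fold change of 4.33, against 0.02 over all genes. Hoxd3 had 546 counts over PA2 at E11.5, against 1 at E10.5, a pooled ratio of 376 with an interval of 67.2 to 14870. Markers of other cell types, 4 of 4 detected in each group, moved between the stages as well. Erythroid markers summed to 6.54 to 17.25 CPM in PA2 of E11.5, against 156 to 406 CPM in PA2 of E10.5, and to 30.1 to 64.5 CPM in Md of E11.5, against 203 to 268 CPM in Md of E10.5. Endothelium markers summed to 10.51 to 12.95 CPM in PA2 of E11.5, against 2.80 to 3.06 CPM in PA2 of E10.5, and to 13.4 to 20.05 CPM in Md of E11.5, against 3.14 to 3.96 CPM in Md of E10.5. Their part in the Hox changes was not tested.

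Both genes rose in Ezh2cKO cells in the places where wild-type cells hold almost none. In Ezh2cKO FNP, Hoxa2 had 4.06, 3.61 and 3.07 CPM and Hoxb2 1.89, 1.7 and 1.73 CPM, against 0 counts of either in wild-type FNP. In Ezh2cKO Mx, Hoxa2 had 4.25, 3.06 and 1.24 CPM and Hoxb2 1.2, 1.18 and 0.791 CPM, against at most 0.106 CPM of Hoxa2 and 0.0266 CPM of Hoxb2 in wild-type Mx. In Ezh2cKO Md, Hoxa2 had 8.21, 7.46 and 3.59 CPM and Hoxb2 1.13, 1.39 and 0.975 CPM, against at most 0.297 CPM and 0.0849 CPM in wild-type Md. No library of either gene overlapped between genotypes in these 3 places. Markers of other cell types differed there too. Epithelium markers (4 of 4 detected in each) summed to 6.95 to 7.27 CPM in Ezh2cKO Mx, against 1.95 to 2.63 CPM in wild-type Mx, and to 6.46 to 9.59 CPM in Ezh2cKO Md, against 2.87 to 3.47 CPM in wild-type Md, while in FNP they overlapped, at 6.75 to 7.84 CPM in Ezh2cKO and 4.41 to 8.34 CPM in wild type. Neuron markers (6 of 6) summed to 18.0 to 23.0 CPM in Ezh2cKO FNP, against 9.72 to 10.7 CPM in wild-type FNP, and to 22.1 to 24.9 CPM in Ezh2cKO Md, against 12.3 to 14.3 CPM in wild-type Md, and overlapped in Mx. Erythroid markers summed to 2.173 to 4.80 CPM in Ezh2cKO FNP, against 8.57 to 34.2 CPM in wild-type FNP. Glia markers summed to 28.7 to 43.85 CPM in Ezh2cKO Mx, against 61.1 to 76.1 CPM in wild-type Mx. In Md they summed to 8.26 to 9.47 CPM in Ezh2cKO, against 5.73 to 7.92 CPM in wild type, and in FNP they overlapped. Muscle and cranial mesoderm markers were higher in Ezh2cKO FNP and Md without overlap, at 1.40 CPM or below, and overlapped in Mx. Mitochondrial genes took 29.3 to 32.4% of counts in Ezh2cKO FNP, 24.9 to 28.3% in Ezh2cKO Mx and 25.5 to 31.0% in Ezh2cKO Md, against 28.2 to 33.6% in wild-type FNP, 21.8 to 22.6% in wild-type Mx and 19.9 to 24.0% in wild-type Md. The part of these in the Hox values was not tested.

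All 6 of these differences passed the test. FNP was at least 102-fold higher for Hoxa2 (299 against 0 counts, adjusted p = 2.07e-10) and at least 50.4-fold higher for Hoxb2 (148 against 0 counts, adjusted p = 1.57e-11), where 6.80% of genes were called. Mx was higher by 5.52 ± 0.68 for Hoxa2 on the log2 scale (adjusted p = 1.69e-07) and by a pooled ratio of 72.5 for Hoxb2 (interval 12.6 to 2902, 77 against 1 counts, adjusted p = 1.08e-07), where 10.3% were called. Md was higher by 4.57 ± 0.44 for Hoxa2 (adjusted p = 4.25e-10) on the log2 scale and by a pooled ratio of 39.5 for Hoxb2 (interval 10.6 to 332, 80 against 2 counts, adjusted p = 4.19e-08), where 8.87% were called. The raised levels stayed below those of second-arch cells. Relative to wild-type PA2, the 3 Ezh2cKO places together were lower by 4.96 ± 0.17 for Hoxa2 (adjusted p = 5.93e-24) and by 2.24 ± 0.19 for Hoxb2 (adjusted p = 6.79e-12) as log2 values, where 19.9% of genes were called.

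The members differed in how much of their second-arch level appeared. Hoxa2 reached 2.86 ± 0.396%, 2.27 ± 1.21% and 5.12 ± 1.98% of its wild-type PA2 mean in Ezh2cKO FNP, Mx and Md (SD, n = 3 each). Hoxb2 reached 28.9 ± 1.65%, 17.2 ± 3.73% and 19.0 ± 3.44% of its own mean in the same groups. The low Hoxa2 shares were not particular to that gene among its neighbours. The overlapping Gm20653 reached 3.58 ± 0.755%, 2.57 ± 1.94% and 5.10 ± 2.25% in FNP, Mx and Md. Beside Hoxa2, the antisense gene 5730446D14Rik reached 3.70 ± 0.744%, 2.32 ± 2.30% and 4.36 ± 2.09%. The antisense gene Gm15051, on the other side, reached 15.35 ± 1.915%, 10.4 ± 1.545% and 17.7 ± 2.34%. Hoxa3, next in the HoxA cluster, reached 14.5 ± 5.09%, 10.3 ± 8.27% and 25.1 ± 9.71%. Hoxb3os, whose reads cannot be split from Hoxb2 where they overlap, reached 115 ± 15.7%, 77.0 ± 14.4% and 85.7 ± 8.42%. Hoxb3, next in the HoxB cluster, reached 239 ± 22.9%, 184 ± 20.6% and 204 ± 35.1%, so it stood above its second-arch level in all 3 places. How much Hoxb3os adds to the Hoxb2 values was not tested.

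**Figure D2:**
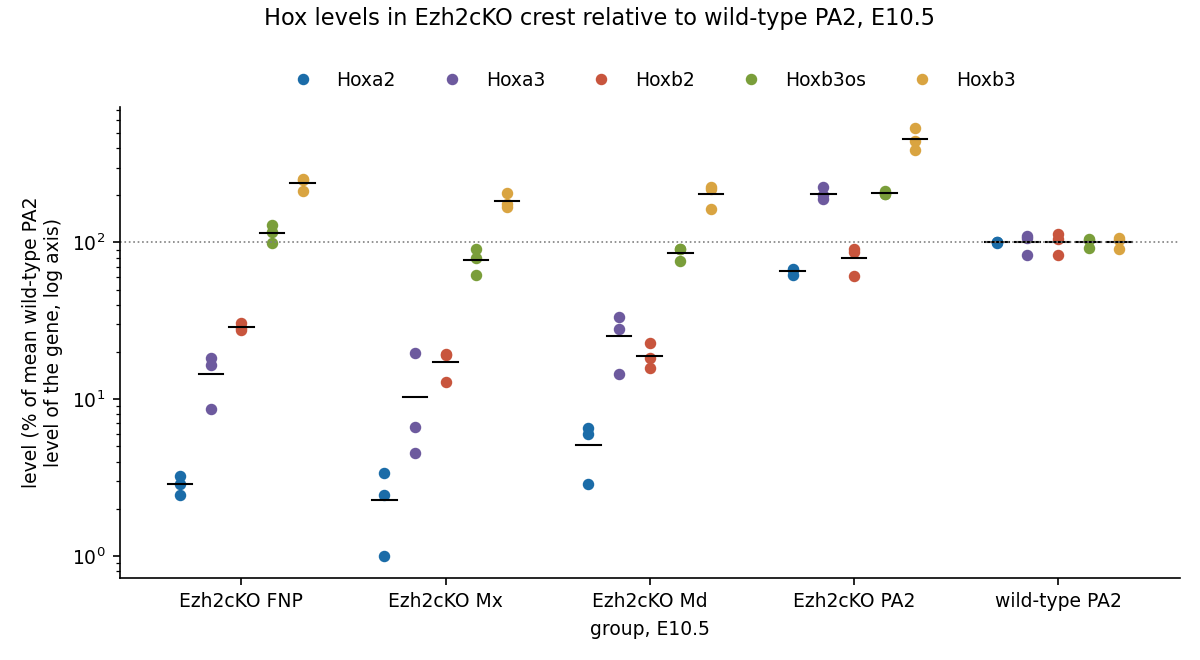
Levels of Hoxa2, Hoxa3, Hoxb2, Hoxb3os and Hoxb3 in each Ezh2cKO library and in wild-type PA2 at E10.5, as a percent of each gene's own mean in wild-type PA2 (log axis, 1 point per library, line at the mean). In Ezh2cKO FNP, Mx and Md, Hoxa2 is lowest at 2.27 to 5.12% and Hoxb3 highest at 184 to 239%; in Ezh2cKO PA2, Hoxa2 and Hoxb2 lie at 65.3% and 79.6% while the other 3 lie above 200%.

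In the second arch neither gene was called higher in Ezh2cKO. Hoxa2 had 77.5, 85.1 and 82.9 CPM in Ezh2cKO PA2, against 127, 125 and 124 CPM in wild-type PA2. Hoxb2 had 5.61, 3.77 and 5.29 CPM in Ezh2cKO PA2, against 5.07, 6.92 and 6.44 CPM in wild-type PA2. The Hoxa2 libraries of the genotypes did not overlap and those of Hoxb2 did. Hoxa2 differed by -0.62 ± 0.21 on the log2 scale (adjusted p = 0.0607) and Hoxb2 by -0.33 ± 0.23 (adjusted p = 0.453), so neither was called, where 9.17% of genes were. Hoxa2 was called lower with no filter on low counts (adjusted p = 0.00722) and in a fit of only these groups (adjusted p = 1.97e-05). Mitochondrial genes took 26.7 to 29.9% of counts in Ezh2cKO PA2, against 22.2 to 23.6% in wild-type PA2, and the part of this share was not tested. The effect of Ezh2 loss in PA2 differed from its mean effect in the other 3 places for both genes (adjusted p = 2.16e-13 for Hoxa2 and 2.59e-12 for Hoxb2), where 0.516% of genes were called. The size of that difference was -7.24 ± 0.49 for Hoxa2 and -6.91 ± 0.50 for Hoxb2 as fitted log2 values, and it rests in part on wild-type FNP, at 0 counts, so it depends on the prior count.

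PA2 also stood highest among the Ezh2cKO places. Hoxa2 was still higher in Ezh2cKO PA2 than in the mean of Ezh2cKO FNP, Mx and Md by 4.34 ± 0.17 on the log2 scale (adjusted p = 7.18e-22), and Hoxb2 by 1.91 ± 0.19 (adjusted p = 9.6e-10), where 8.17% of genes were called.

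Other anterior Hox genes rose in Ezh2cKO PA2. Of the 10 Hox genes of groups 1, 3 and 4, 7 were called higher and 0 lower in Ezh2cKO PA2, where 9.17% of all genes were called. Their median log2 fold change was 3.85, against -0.002 over all genes. Hoxb4 reached 290 counts in Ezh2cKO PA2, against 0 in wild-type PA2, at least 79.9-fold higher (adjusted p = 4.32e-07). Hoxc4 reached 533 counts against 3, a ratio of 147 with an interval of 50.0 to 714, and Hoxa4 reached 93 counts against 1, a ratio of 76.8 with an interval of 13.5 to 3068. The neighbouring Hox genes Hoxa3 and Hoxb3 and the overlapping Hoxb3os also rose. Hoxa3 had 25.0, 28.1 and 23.6 CPM in Ezh2cKO PA2, against 10.4, 13.7 and 13.4 CPM in wild-type PA2 (log2 fold change 1.03 ± 0.25, adjusted p = 0.00512). Hoxb3 had 13.3, 15.3 and 18.5 CPM, against 3.12, 3.56 and 3.68 CPM (2.18 ± 0.26, adjusted p = 6.4e-08). Hoxb3os had 29.6, 29.6 and 30.8 CPM, against 13.3, 15.2 and 15.03 CPM (1.05 ± 0.18, adjusted p = 7.01e-05). Hoxb2, by its values above, was not called while the antisense gene that overlaps it was. Epithelium markers (4 of 4 detected in each) summed to 8.75 to 10.1 CPM in Ezh2cKO PA2, against 2.06 to 3.40 CPM in wild-type PA2, and neuron markers (6 of 6) to 20.4 to 24.2 CPM, against 9.86 to 12.7 CPM. Neural progenitor markers summed to 27.6 to 34.5 CPM in Ezh2cKO PA2, against 20.6 to 23.8 CPM in wild-type PA2. Glia markers summed to 14.4 to 16.45 CPM, against 11.05 to 12.8 CPM, and muscle and cranial mesoderm markers to 0.508 to 0.913 CPM, against 0.0905 to 0.168 CPM. The part of these markers in these results was not tested.

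The antisense genes beside Hoxa2 were not called. Gm15051, which lies 232 bases past the 3′ end of Hoxa2 and is named Hotairm1 in GENCODE vM21, had a log2 difference of -0.39 ± 0.16 in Ezh2cKO PA2 (adjusted p = 0.147). The antisense 5730446D14Rik, 261 bases on the other side and named Hoxaas2 there, had -0.44 ± 0.20 (adjusted p = 0.182). The overlapping Gm20653, also not called, had -0.56 ± 0.22 (adjusted p = 0.119). In the other Ezh2cKO places the Hox list rose more fully: 10 of 10 in FNP, 8 of 10 in Mx and 8 of 10 in Md were called higher and 0 lower. Among all genes, 6.80%, 10.3% and 8.87% were called in those places. The list medians were 7.10, 7.58 and 8.09 on the log2 scale, fitted values that include genes at 0 counts in wild type. Comparisons that share wild-type libraries are given side by side only.

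In the mandibular arch with overexpression, Hoxa2 reached levels that overlapped the second arch, while Hoxb2 stayed far below its own second-arch level. Hoxa2 had 92.8, 112 and 124 CPM in HoxA2OE Md, against 0.297, 0.248 and 0.265 CPM in wild-type Md, and 127, 125 and 124 CPM in wild-type PA2. Its libraries stood far above wild-type Md and touched the range of wild-type PA2. Hoxb2 had 0.413, 0.481 and 0.184 CPM in HoxA2OE Md, against 0.0849, 0 and 0 CPM in wild-type Md, and 5.07, 6.92 and 6.44 CPM in wild-type PA2. It lay above wild-type Md and far below PA2, with no overlap on either side.

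Hoxa2 was higher than in wild-type Md by 8.65 ± 0.37 on the log2 scale (adjusted p = 1.13e-19) and differed from wild-type PA2 by -0.19 ± 0.21 (adjusted p = 0.46). Hoxb2 was called higher than in wild-type Md on 34 against 2 counts, a pooled ratio of 11.6 with an interval of 2.97 to 99.7 (adjusted p = 1.38e-04), and lower than in wild-type PA2 by 4.11 ± 0.30 on the log2 scale (adjusted p = 2.5e-13). Among all genes, 54.8% were called against wild-type Md and 56.1% against wild-type PA2, so a call alone says little there. HoxA2OE libraries held 45.6 to 49.8 M counts, against 18.8 to 22.6 M in wild-type Md. Erythroid markers, 4 of 4 detected in each, summed to 5.69 to 10.99 CPM in HoxA2OE Md and to 203 to 268 CPM in wild-type Md. Neural progenitor markers summed to 29.7 to 40.9 CPM in HoxA2OE Md, against 20.7 to 23.9 CPM in wild-type Md. Endothelium markers summed to 8.47 to 9.87 CPM, against 3.14 to 3.96 CPM, and crest mesenchyme markers to 2055 to 2757 CPM, against 1558 to 1598 CPM. Neuron, glia, epithelium, muscle and leukocyte markers overlapped. The part of these markers in the Hox values was not tested. Replicate 1 of HoxA2OE Md stood apart, with a chi-square per degree of freedom of 316 and 331 against the others, which differed from each other by 12.2. Mitochondrial genes took 45.9% of its counts and 28.45 and 28.5% in the others, against 19.9 to 24.0% in wild-type Md and 22.2 to 23.6% in wild-type PA2, and the part of this share was not tested. Without that library Hoxa2 was higher than in wild-type Md by 8.74 on the log2 scale (adjusted p = 3.4e-21) and differed from wild-type PA2 by -0.105 (adjusted p = 0.71). Hoxb2 was higher than in wild-type Md by 3.27 (adjusted p = 0.000771) and lower than in wild-type PA2 by 4.23 (adjusted p = 2.76e-12), and 9446 of the tested genes were called against wild-type Md in place of 11277.

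The neighbours of Hoxa2 in the cluster stayed at wild-type Md levels apart from Gm20653. Gm20653, which overlaps Hoxa2, had 27.7, 42.3 and 46.3 CPM in HoxA2OE Md, against 29.9, 31.7 and 29.6 CPM in wild-type PA2, and differed by 0.35 ± 0.22 on the log2 scale (adjusted p = 0.174). Gm15051 had 3 counts over HoxA2OE Md, against 744 in wild-type PA2, and 5730446D14Rik and Hoxa3 had 0 counts, at least 465-fold and 407-fold lower. Of the 10 Hox genes of groups 1, 3 and 4, 0 were called in HoxA2OE Md against wild-type Md, where 54.8% of all genes were called. That held for edgeR and DESeq2, with 0 at an unadjusted p under 0.05. Hoxb3os, by contrast, had 67 counts in HoxA2OE Md against 2 in wild-type Md, a ratio of 22.9 with an interval of 6.09 to 193 (adjusted p = 4.71e-07). It overlaps Hoxb2, and how reads in the shared stretch were counted is not stated.

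**Figure D3:**
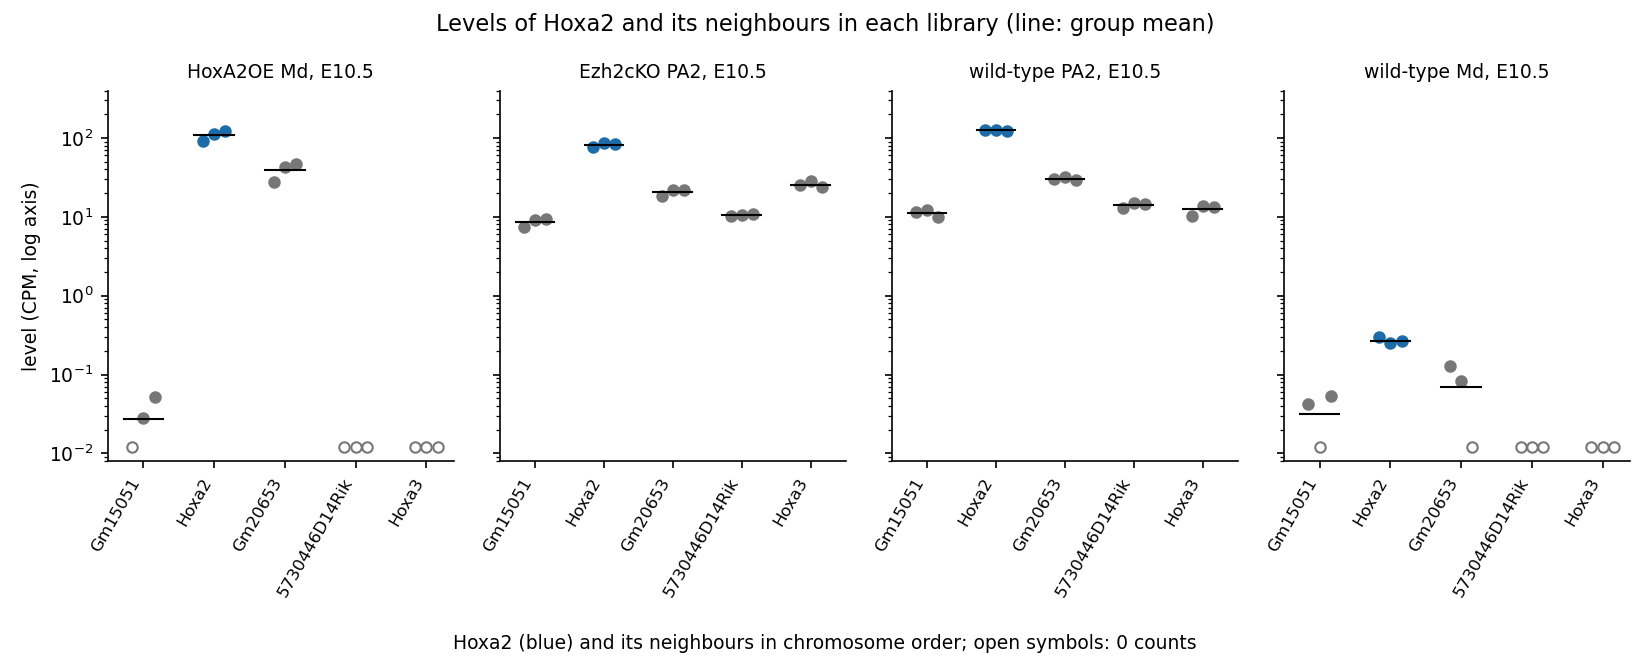
Levels of Gm15051, Hoxa2 (blue), Gm20653, 5730446D14Rik and Hoxa3 in the order they take on the chromosome, in HoxA2OE Md, Ezh2cKO PA2, wild-type PA2 and wild-type Md at E10.5 (CPM, log axis, 1 point per library, line at the mean, open points for 0 counts). In HoxA2OE Md only Hoxa2 and Gm20653 of these 5 exceed 0.0525 CPM, whereas in both PA2 groups all 5 lie at 7.35 CPM or above.

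In the temporal knockout, counts over Hoxa2 stayed high. Hoxa2 had 195, 185 and 176 CPM in Hoxa2TempMut PA2 of E11.5, against 268, 268 and 269 CPM in Control and 194, 199 and 183 CPM in wild-type PA2. The mutant libraries lay below all of Control and overlapped wild type. The log2 difference from Control was -0.54 ± 0.21 (adjusted p = 0.503, where 0.623% of genes were called), and it was called in a fit of only these groups (adjusted p = 7.9e-05). The labels do not say which part of Hoxa2 is deleted, so counts over the whole gene are no measure of the deletion. Gm20653 had 52.1, 49.6 and 46.3 CPM in Hoxa2TempMut, against 75.1, 78.3 and 78.6 CPM in Control, also without overlap and not called (adjusted p = 0.287).

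Hoxb2 was lower in both Hoxa2TempMut and Control than in wild-type PA2 of E11.5. It had 3.1, 3.12 and 2.62 CPM in Hoxa2TempMut, 4.48, 3.33 and 3.18 CPM in Control, and 7.48, 7.51 and 5.85 CPM in wild-type PA2. Neither group overlapped wild type. Hoxb2 differed between Hoxa2TempMut and Control by -0.31 ± 0.23 (adjusted p = 1), but was lower than wild type by 1.24 ± 0.23 in Hoxa2TempMut (adjusted p = 7.38e-05) and by 0.92 ± 0.23 in Control (adjusted p = 0.00255), as log2 values. Hoxa2 moved otherwise: it differed from wild type by -0.05 ± 0.21 in Hoxa2TempMut (adjusted p = 0.881) and by 0.48 ± 0.21 in Control (adjusted p = 0.0947). The wild-type libraries are shared by these comparisons, and 29.7% of genes were called for Hoxa2TempMut and 22.1% for Control. Other differences between these groups and wild type cannot be told apart from genotype. Muscle and cranial mesoderm markers (5 of 5 detected in each) summed to 1.87 to 2.99 CPM in Hoxa2TempMut and 2.52 to 4.56 CPM in Control, against 0.606 to 1.03 CPM in wild type. Endothelium markers (4 of 4) summed to 5.18 to 7.15 CPM in Hoxa2TempMut and 4.59 to 6.61 CPM in Control, against 10.51 to 12.95 CPM in wild type, and glia markers (4 of 4) to 14.1 to 18.7 CPM in Hoxa2TempMut and 18.6 to 22.5 CPM in Control, against 12.6 to 13.0 CPM in wild type. Mitochondrial genes took 19.8 to 23.9% of counts in Hoxa2TempMut and 19.6 to 20.05% in Control, against 15.4 to 18.0% in wild type. The part of these values in the Hox levels was not tested.

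Other Hox genes did not share one direction there. Against Control, where 0.623% of all genes were called, 0 of 10 Hox genes of groups 1, 3 and 4 were called in Hoxa2TempMut by edgeR. DESeq2 also called 0. In edgeR 2 had an unadjusted p under 0.05, and 1 was called with no filter on low counts. Against wild type, 1 was higher and 5 lower in Hoxa2TempMut, and 1 higher and 4 lower in Control, where 29.7% and 22.1% of all genes were called. The higher one was Hoxa3, at 57.2, 55.6 and 55.0 CPM in Hoxa2TempMut and 52.6, 50.3 and 58.4 CPM in Control, against 34.5, 28.5 and 29.0 CPM in wild type. Among the lower ones, Hoxc4 had log2 fold changes of -3.15 ± 0.39 in Hoxa2TempMut (adjusted p = 3.02e-07) and -2.10 ± 0.35 in Control (adjusted p = 4.48e-05).

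The balance between the members is described for each group. Within each library the Hoxb2 level per kb was taken as a percent of the Hoxa2 level per kb, a measure that no library scaling touches. It was 36.7 ± 4.12% in Ezh2cKO FNP, 31.9 ± 13.4% in Ezh2cKO Mx and 14.6 ± 4.97% in Ezh2cKO Md, against 4.41 ± 1.06% in Ezh2cKO PA2 (SD, n = 3 each). Wild-type PA2 stood at 2.65 ± 0.266% at E11.5 and 3.60 ± 0.588% at E10.5, and progenitors of E8.5 at 11.8 ± 4.63%. Hoxa2TempMut and Control stood at 1.17 ± 0.0701% and 1.00 ± 0.196%, and HoxA2OE Md at 0.250 ± 0.122%. Reads of Hoxb2 and Hoxb3os cannot be told apart in the stretch they share, and the part of Hoxb3os in these ratios was not tested.

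Exact two-sided permutation tests were run on the log2 ratio for 4 planned pairs of groups. With 3 libraries in each group, none of the 4 could go below p = 0.1 in an exact test. The HoxA2OE Md to wild-type PA2 difference of -4.00 and the E11.5 to E10.5 difference of -0.44 in PA2 reached that limit (exact p = 0.1, 0.2 adjusted over 4). Ezh2cKO PA2 against wild-type PA2 (0.28, exact p = 0.4) and Hoxa2TempMut against Control (0.24, exact p = 0.3) did not (0.4 adjusted in each). Further pairs, not planned, joined libraries of several groups. Ezh2cKO FNP, Mx and Md together exceeded Ezh2cKO PA2 by 2.525 on the log2 scale (exact p = 0.00455, 0.0273 adjusted over all 6 pairs). Hoxa2TempMut and Control together differed from wild-type PA2 of E11.5 by -1.297 (exact p = 0.0119, 0.0357 adjusted over 6). Each p was the smallest possible, and joined libraries are not replicates of the same condition. No other pairs of the groups above were tested.

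**Figure D4:**
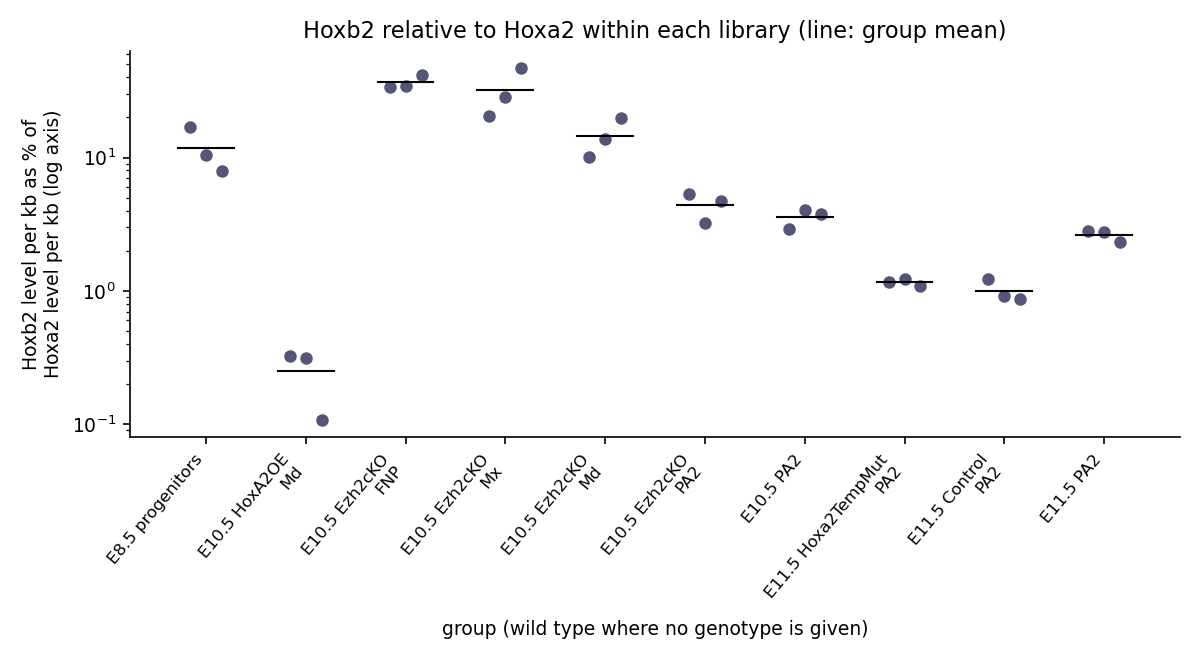
Hoxb2 level per kb of exon as a percent of the Hoxa2 level per kb, within each library of the 10 groups where both were measured well enough for a ratio (log axis, 1 point per library, line at the mean). Ezh2cKO FNP, Mx and Md lie between 10.1 and 46.7%, all PA2 groups between 0.865 and 5.31%, and HoxA2OE Md between 0.108 and 0.327%.

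Ordered by mean level, Hoxa2 ran from Control (268 CPM) through wild-type PA2 of E11.5 (192), Hoxa2TempMut (185), wild-type PA2 of E10.5 (125), HoxA2OE Md (110) and Ezh2cKO PA2 (81.8) to Ezh2cKO Md (6.42), Ezh2cKO FNP (3.58), progenitors (3.07), Ezh2cKO Mx (2.85) and wild-type Md of E11.5 (1.58). Libraries overlapped between wild-type PA2 of E11.5 and Hoxa2TempMut, between wild-type PA2 of E10.5 and HoxA2OE Md, and between each adjacent pair from Ezh2cKO Md downwards. Hoxb2 ran from wild-type PA2 of E11.5 (6.95 CPM) and E10.5 (6.14), Ezh2cKO PA2 (4.89), Control (3.66) and Hoxa2TempMut (2.95) to Ezh2cKO FNP (1.77), Md (1.17) and Mx (1.06), progenitors (0.488) and HoxA2OE Md (0.359). Its first 4 groups overlapped each with the next, as did Ezh2cKO Md with Mx and progenitors with HoxA2OE Md.

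Across the 16 group means of log2 CPM, Hoxa2 and Hoxb2 had a Pearson r of 0.899, which was 0.985 over the 9 wild-type groups and 0.953 over the 15 groups without HoxA2OE. These values are a description of group means under a single library scaling, and the PA2 groups set most of their range. Among 12966 genes with at least 5 CPM in 1 group, the 8 most like Hoxa2 over the 16 groups were Gm20653 (r = 0.994), 8430419K02Rik (0.935), Meis1 (0.918), Plcxd3 (0.904), Arg2 (0.903), Serinc5 (0.900), Hoxb2 (0.899) and Zc3h12c (0.898). The 8 most like Hoxb2 were Hoxb3os (r = 0.964), Gm15051 (0.963), Hoxa3 (0.932), Hoxa2 (0.899), Dmrt2 (0.894), Hoxb3 (0.892), 5730446D14Rik (0.888) and Lingo1 (0.882). For Hoxa2, 3 of 8 were kept when only the 9 wild-type groups were used, and for Hoxb2 all but Dmrt2 and Lingo1. Gm20653 overlaps Hoxa2 and Hoxb3os overlaps Hoxb2, and the part of shared reads in their r values was not tested.

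Cofactors that bind DNA with Hox proteins were followed through 9 Meis, Pbx and Pknox genes. In PA2 against the mean of FNP, Mx and Md at E10.5, 4 were higher and 1 lower, with a median of 0.19 on the log2 scale against -0.005 over all genes, where 5.59% of all genes were called higher and 4.94% lower. Meis1 was higher by 3.12 ± 0.10 (adjusted p = 5.4e-27), Meis2 by 2.05 ± 0.08 (adjusted p = 7e-24) and Pknox1 by 0.74 ± 0.10 (adjusted p = 6.87e-07). At E11.5, 6 were higher and 1 lower, where 9.41% of all genes were called higher and 8.27% lower. HoxA2OE Md against wild-type Md had 4 higher and 2 lower, among them Meis1 at 1.19 ± 0.12 (adjusted p = 2.76e-10), Pbx3 at 0.98 ± 0.10 (adjusted p = 4.53e-10) and Meis3 at -1.03 ± 0.23 (adjusted p = 2.28e-04). With 54.8% of all genes called there, that count of 6 in 9 lies near the background. In Ezh2cKO PA2, where 9.17% of genes were called, 0 were higher and 2 lower: Meis1 at -0.37 ± 0.12 (adjusted p = 0.0414) and Meis2 at -0.44 ± 0.10 (adjusted p = 0.00172), of which only 1 was called with RLE size factors. Hoxa2TempMut against Control, where 0.623% of genes were called, had Pknox2 higher at 0.58 ± 0.10 (adjusted p = 4.92e-04) and Meis2 lower at -0.60 ± 0.10 (adjusted p = 1.96e-04).

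Genes upstream of paralogue group 2 and of the retinoic acid pathway, which sets Hox borders, were called in both directions. In PA2 against the others at E10.5, 3 of 10 tested were higher and 2 lower, where 5.59% of all genes were called higher and 4.94% lower. Cyp26c1 and Cyp26a1, enzymes that break down retinoic acid, were higher by 3.29 ± 0.47 and 2.66 ± 0.20 (adjusted p = 8.52e-07 and 7.99e-14), and the receptor Rarb was lower by 2.11 ± 0.13 (adjusted p = 1.35e-16), as log2 values. Egr2, a hindbrain regulator of both members, was higher in Hoxa2TempMut (2.56 ± 0.33, adjusted p = 1.51e-07) and Control (2.54 ± 0.33, adjusted p = 2.86e-07) than in wild-type PA2, where Hoxb2 was lower and 29.7% and 22.1% of genes were called. Glia, endothelium and muscle markers also differed between these groups, as given above, and their part in the Egr2 values was not tested. In Ezh2cKO FNP 4 of 10 were higher and 1 lower, where 6.80% of genes were called, and in Ezh2cKO PA2 1 was higher (Aldh1a2, which makes retinoic acid, at 1.498 ± 0.26, adjusted p = 6.12e-05) and 0 lower, a count near the 9.17% of all genes called.

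Genes that earlier work placed downstream of Hoxa2 were read in the comparisons of place, overexpression, temporal knockout and Ezh2 loss. Hoxa2 was not called in the temporal knockout or in Ezh2cKO PA2. The lists were chosen with earlier results of these data known, so their counts are a description only. Of 6 genes taken as raised by Hoxa2, 4 were higher and 1 lower in PA2 than in the other places at E10.5 (5.59% and 4.94% of all genes), with the highest folds in Meis1, Zfp503 (2.58 ± 0.10, adjusted p = 3.75e-23) and Zfp703 (2.169 ± 0.19, adjusted p = 3.06e-12). In HoxA2OE Md 4 were higher and 0 lower, including Zfp503 at 1.45 ± 0.13 (adjusted p = 1.18e-11), where 54.8% of all genes were called, so the count itself lies near the background. Of 7 genes taken as lowered by Hoxa2, 1 was higher and 4 lower in PA2 at E10.5, including the first-arch and frontonasal homeobox genes Six2 (-4.76 ± 0.26, adjusted p = 4.01e-18) and Alx4 (-4.47 ± 0.15, adjusted p = 4.61e-26). In HoxA2OE Md 0 were higher and 6 lower, including Pitx1 (-3.61 ± 0.32, adjusted p = 9.07e-12) and Six2 (-3.57 ± 0.27, adjusted p = 1.79e-13), with a median of -1.505 against -0.073 over all genes and the same 54.8% called. Without HoxA2OE replicate 1, a choice made after seeing the data, 4 of the raised list, 6 of the lowered list and 7 of the 9 cofactors were called.

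Most of the same 7 genes were called in the temporal knockout, where Hoxa2 itself was not. In Hoxa2TempMut against Control, 5 were higher and 0 lower, where 0.623% of all genes were called, with a median of 0.87 against 0.005. Nkx3-2, a gene of the jaw joint, was higher by 2.29 ± 0.44 (adjusted p = 0.00259), Pitx1 by 1.52 ± 0.32 (adjusted p = 0.00703) and Alx4 by 1.20 ± 0.13 (adjusted p = 1.35e-07), as log2 values. Of the 6 raised genes, 0 were higher and 1, Meis2, was lower, but 2 were called with DESeq2 or with no filter and 5 when only Hoxa2TempMut and Control were fitted. In Ezh2cKO PA2, where Hoxa2 lay at 65.3 ± 3.12% of wild type and 9.17% of genes were called, 5 of the 7 were higher and 1 lower, including Six2 (2.41 ± 0.29, adjusted p = 6.4e-08) and Lhx6 (1.80 ± 0.23, adjusted p = 2.18e-07).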

How the data were processed

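The deposited table gives counts of reads per gene for 47 libraries and 38215 genes, made by the authors on GRCm38 (mm10) after bcl2fastq, per the submitters' processing notes; no aligner, counter or annotation is named there. Total RNA of sorted crest cells was read as 50-base single ends without strand, 3 barcoded libraries per pool, per the labels' protocols. A further 22 columns repeated a name with identical values and were used 1 time.

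The 20560 genes passing edgeR's filter (minimum count 10, minimum total 15) were fitted in 1 quasi-likelihood model of 16 groups (R 4.3.3, edgeR 4.0.16, limma 3.58.1). TMM factors were 0.514 to 1.16, with 31 residual degrees of freedom. After that fit, counts simulated from its means and dispersions were fitted again, and only Hoxa2TempMut against Control was checked in them. Adjusted p-values are Benjamini-Hochberg over all genes tested, with calls at 0.05. Pooled ratios carry 95% Poisson counting intervals, which cover counting error only. Exact permutation tests compared ratios of both members.

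Some results on single genes and sequences are not reported here. Members and lists were chosen with earlier results of these data known. Of each list, up to 3 called genes of largest fold change with at least 1 CPM in the higher group are named, with the 8 genes of most like pattern (prior count 2) and the nearest or overlapping genes. Alternatives were RLE factors, no filter, DESeq2 1.42.0, a fit of only the groups compared, a replicate block and leaving out each library. Same-numbered libraries' deviations correlated between -0.201 and 0.439 (median 0.00501), so numbers were not taken as pairs.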

Additional observations from a re-analysis of the deposited data

Results flagged for a closer look

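The effect of Ezh2cKO in PA2 differed from its mean effect in FNP, Mx and Md for both genes, by a test of the difference itself in edgeR's quasi-likelihood fit. The fitted log2 difference was -7.24 for Hoxa2 (adjusted p = 2.16e-13) and -6.91 for Hoxb2 (adjusted p = 2.59e-12). Both sizes depend on the prior count, since wild-type FNP had 0 counts of each gene. In all 9 Ezh2cKO libraries of FNP, Mx and Md each gene was above every wild-type library of the same place, while in PA2 all 3 Ezh2cKO libraries were below wild type for Hoxa2 and the genotypes overlapped for Hoxb2.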

How the results depend on the processing

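Of 56 member results, all 56 kept their direction and side of the threshold with RLE size factors and all 56 with the replicate block (under the replicate block the log2 fold change of PA2 over the other places at E10.5 was 11.60 for Hoxa2 and 8.86 for Hoxb2). The Hoxa2 stage difference of PA2 over Md passed at -1.917 with no filter on low counts, -1.922 with DESeq2 and -1.905 when the compared groups alone were fitted (the groups-only fit), and ran from -2.18 to -1.42 with 1 library left out, passing without E11.5 Md replicate 1. Hoxa2 in Ezh2cKO PA2 passed at -0.591 with no filter and -0.598 in the groups-only fit. Hoxa2 in Hoxa2TempMut against Control passed at -0.550 in the groups-only fit, and in Control against wild type at 0.454 with no filter and 0.474 in the groups-only fit. DESeq2 called Hoxa2 in FNP between stages (3.371) and not in PA2 (0.619). With 1 library left out, Hoxa2 in FNP against Mx at E10.5 ran from -4.79 to 0.000, the last without Mx replicate 1, which held all 4 counts. Hoxb2 ran from -4.61 to -2.30 in Mx against Md at E11.5, passing without Mx replicate 3, and from 0.953 to 4.62 in Md between stages, passing without E10.5 Md replicate 1. The cause of these changes was not tested. The groups-only fit gave no value for 10 of the 56.

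Counts of genes called moved by over 1.5 times in the groups-only fit: 1746 for 960 (PA2 against Md, E10.5), 3026 for 1885 (Ezh2cKO PA2), 173 for 106 (difference of Ezh2cKO effects), 2669 for 1679 (PA2 against the other Ezh2cKO places), 6400 for 11277 and 6550 for 11529 (HoxA2OE Md against wild-type Md and PA2) and 247 for 128 (Hoxa2TempMut against Control). Leaving out 1 library moved them to 1738 or 1877 for 3400 (FNP against Mx, E10.5, without Mx replicate 2 or 1), 880 for 1359 (Mx against Md, E10.5, without Mx replicate 1), 2162 or 2208 for 3430 (FNP against Mx, E11.5, without Mx or FNP replicate 3), 722, 998 or 1398 for 2111 (Ezh2cKO Mx, without wild-type replicate 2 or 1 or Ezh2cKO replicate 2), 1204 or 1210 for 1823 (Ezh2cKO Md, without wild-type replicate 3 or Ezh2cKO replicate 1), 1229 for 1885 (Ezh2cKO PA2, without Ezh2cKO replicate 2) and 75 for 128 (Hoxa2TempMut against Control, without Control replicate 2). Of the genes taken as raised by Hoxa2, 2 were called in Hoxa2TempMut against Control with DESeq2 or no filter and 5 in the groups-only fit, for 1. List counts were recomputed with a library left out for HoxA2OE Md replicate 1 alone. Depth limits Hoxb2 outside PA2 in wild type, where groups held 0 to 10 counts.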
